A study of Caenorhabditis elegans with 4 samples.

Results

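The strongest DPY-28 sites on the X chromosome of Caenorhabditis elegans embryos were taken as the X peaks with a score of 50 or more in the peak list of the whole series. This rule gave 589 sites out of 9098 X peaks and 10867 peaks in all. Binding was mapped by chromatin immunoprecipitation and sequencing (ChIP-seq) in 2 ChIP samples, each with an input sample that was not analysed here. The samples were wild-type N2 embryos of mixed stages from a population of males and hermaphrodites, for which a temperature of 20 °C is given. A polyclonal rabbit antibody to DPY-28, purified by affinity, was used on chromatin fixed with 2% formaldehyde. Nothing in the labels says whether the ChIP replicates came from separate cultures, so the spread between them may be technical. Positions are those of the WormBase WS220 build.

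DPY-28 is a subunit shared by condensin I, which compacts chromosomes in dividing cells, and by the dosage compensation complex, which binds both X chromosomes of hermaphrodites and lowers their transcription to match the single X of males. In the accepted model, SDC-2 and its partners bring this complex to recruitment elements on X (rex sites), and the complex spreads from there along the chromosome, where many further sites lie near promoters. Embryos hold both forms of condensin, and an antibody to DPY-28 does not separate them. Which of the sites described here are known recruitment elements, and which genes they lie near, was not analysed here, because no genome or gene annotation of the WS220 build was used.

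The sites were chosen by their score, so their scores are described and not tested. The score is the authors' value from the peak caller, its scale is not named, and it is used only to rank peaks within a list. The 589 sites made up 6.47% of the X peaks. Their median score was 80.05, with quartiles of 64.15 and 105.1 and a highest score of 261. The other 8509 X peaks had a median score of 6.49. Among the 1763 autosomal peaks, 3 scored 50 or more, with a highest score of 56.85, and 523 of the X sites scored above it. The scores ran on across the limit of 50 without a break. Just inside it lay X 5816007 to 5816910 (score 50.06), X 14946421 to 14946987 (50.08), X 8059720 to 8060229 (50.1), X 9774087 to 9774520 (50.12) and X 9372940 to 9373405 (50.35). Just outside it lay X 16044114 to 16044660 (49.94), X 12347813 to 12348250 (49.86), X 14711087 to 14711532 (49.74), X 14636479 to 14637128 (49.72) and X 14334078 to 14334508 (49.48). Each of these 10 peaks overlapped a replicate 2 peak, and 3 of the lowest 5 sites and 4 of the 5 peaks below the limit overlapped a replicate 1 peak. X 9668439 to 9668964 was tied at 50.35 and is left out of these counts. This tied site overlapped a replicate 2 peak and no replicate 1 peak.

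Both ChIP samples carried peaks at most of these sites. A peak of the replicate 2 list lay at 589 of the 589 sites (overlap of 1 bp or more), against a background of 59.7% over all X peaks. A peak of the replicate 1 list lay at 529 sites, or 89.8% (exact 95% interval 87.1 to 92.1%), against a background of 18.9%. The share of supported sites was 94.9% ± 7.20 (SD, n = 2 ChIP samples). Both replicates supported 529 sites against a background of 16.9%, replicate 2 alone supported 60, and replicate 1 alone supported 0. The exact interval for the share without a replicate 2 peak reached 0.624%. It covers counting error only, since all the sites were counted and neighbouring peaks are not independent. Under stricter rules the count in both replicates was lower: 373 sites where the replicate peak had to cover 50% of the site (background 10.9%), 315 where the overlap had to be 50% of both peaks (background 8.66%), and 454 where only the upper 50% of replicate X peaks by score were used (background 8.85%). Among the X peaks under 50, 13.9% overlapped a replicate 1 peak, 57% a replicate 2 peak and 11.9% peaks of both. The sources used here do not say how the whole-series list was made from the samples. The replicate lists can therefore not be taken as independent of the choice of sites, and these shares are a description with no test.

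Support in replicate 1 differed with score within the chosen sites, while support in replicate 2 was complete from the limit upwards. In the band of scores from 50 to 75, 201 of 251 sites, or 80.1% (exact 95% interval 74.6 to 84.8%), had a replicate 1 peak. From 75 to 100 it was 161 of 169 (95.3%, 90.9 to 97.9%), and from 100 to 150 it was 120 of 122 (98.4%, 94.2 to 99.8%). All 27 sites from 150 to 200 and all 20 sites of 200 or more had one. Below the limit, 396 of 678 X peaks from 25 to 50 (58.4%) overlapped replicate 1, and 675 of these 678 (99.6%) overlapped replicate 2. These intervals cover counting error only, and neighbouring peaks are not independent.

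**Figure D1:**
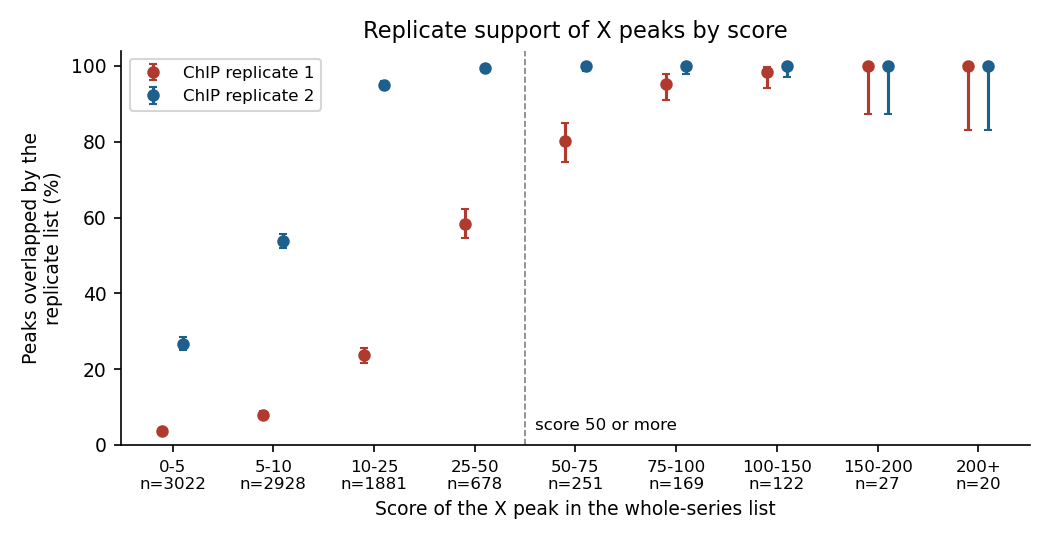
Share of X peaks overlapped by 1 bp or more by a peak of ChIP replicate 1 (red) or 2 (blue), in bands of the whole-series score, with the number of peaks in each band. Points are percentages and bars are exact 95% intervals. Replicate 2 is at 95.1% from a score of 10 to 25 and at 100% in each band of 50 or more, while replicate 1 goes from 23.6% at 10 to 25 to 80.1% at 50 to 75.

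The sites also stood high within the replicate lists. Replicate 2 peaks at the sites had scores from 430.5 to 3197 with a median of 1372, while the median of all 4743 X peaks of that list was 169. Each of the 589 sites lay above the upper quartile of those X peaks, which was 410, and 424 sites (72.0%) lay in the highest 10%. Replicate 1 peaks at the 529 sites had scores from 51.01 to 3100 with a median of 309, while the median of all 1889 X peaks of that list was 106. Of all 589 sites, 334 (56.7%) lay above the upper quartile of that list, 237, and 157 (26.7%) lay in its highest 10%. In replicate 1 the range at the sites thus reached down almost to the lowest score on X, 50.08, and in replicate 2 it did not. Scores of the 2 lists are not set against each other here, because a shared scale is not stated.

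**Figure D2:**
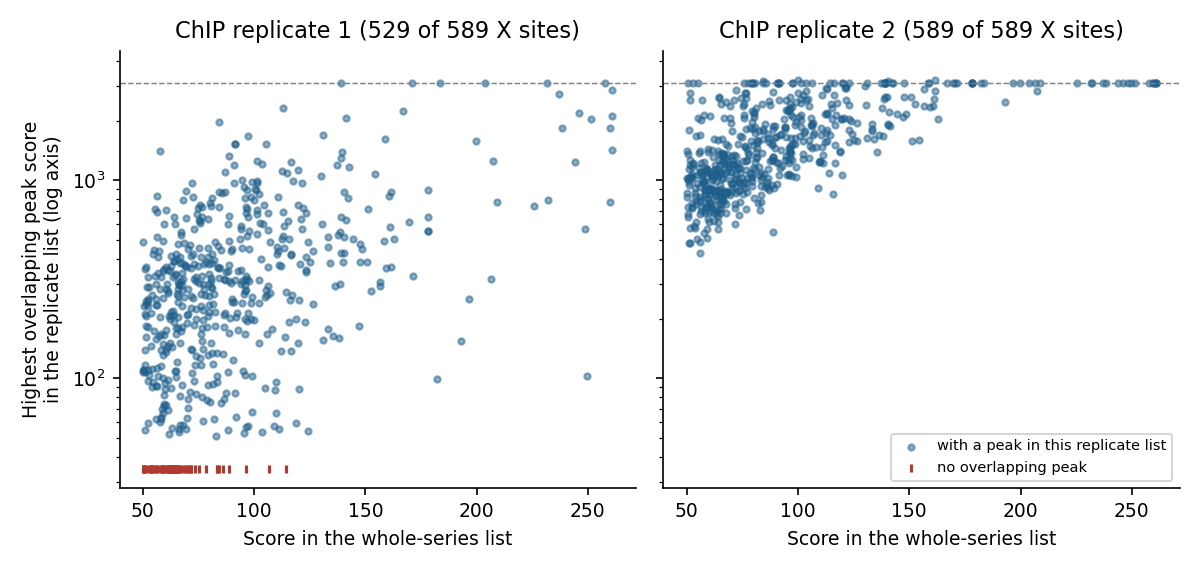
Score of the highest overlapping peak in ChIP replicate 1 (left) and 2 (right) against the score in the whole-series list, 1 point for each X site of score 50 or more. The vertical axis is logarithmic, red ticks mark the 60 sites with no replicate 1 peak, and the dashed line is at 3100, where many scores are tied. Sites with no replicate 1 peak lie at whole-series scores of 114 or lower.

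The order of the sites in the whole-series list was set beside their order in each replicate list. Over the sites, the Spearman rho with the whole-series score was 0.68 for replicate 2 (589 sites) and 0.44 for replicate 1 (529 sites). These 2 values are over unlike sets, because sites with no replicate 1 peak drop out of the second. A replicate 2 value over the same 529 sites was not computed. Between the replicates it was 0.65 over the 529 sites, and 0.36 over the 1011 weaker X peaks found in both. Wider sites tended to score higher in each list: rho between the width of a site and its score was 0.31 in the whole-series list, 0.48 in replicate 1 and 0.60 in replicate 2. Wider peaks also meet more replicate peaks under the 1 bp rule. These correlations are across sites of 1 chromosome that share libraries and depth, so they are given without a p.

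The highest replicate peaks and the chosen sites were largely the same regions, with exceptions. Of the 100 highest X peaks of each list, 93 in replicate 2 and 86 in replicate 1 overlapped a site. Among as many of the highest X peaks as there are sites, 589, the share was 81.2% in replicate 2 (478 peaks) and 67.7% in replicate 1 (399 peaks). At scores of 3100 or more, 62 of 67 X peaks of replicate 2 and 6 of 10 of replicate 1 overlapped a site. The exceptions in replicate 1 included X 17444365 to 17447838 (replicate 1 score 3126, width 3474 bp) and X 15807267 to 15811259 (3100, 3993 bp), which overlapped whole-series peaks scoring at most 23.62 and 33.64. In replicate 2 they included X 289602 to 295414 (3100, 5813 bp) and X 10360857 to 10369586 (3100, 8730 bp), with whole-series scores of at most 26.04 and 22.49. The 8 replicate 1 X peaks of 1500 or more at no site had a median width of 2614 bp, and the 26 at a site had one of 979 bp. In replicate 2 the medians were 2744 bp for 22 such peaks and 1141 bp for 247. By their medians, the strong replicate peaks at no site were thus the wider ones. These regions were picked after their values were seen.

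The 12 highest scoring sites were mostly wide regions that replicate 2 called as 1 peak and replicate 1 as several. Each of the 12 had a replicate 2 score of 3100, the value shared by 63 X peaks of that list, so replicate 2 does not order them. Their widths ran from 1366 to 6124 bp with a median of 3232 bp, 10 of the 12 were wider than 2 kb, and 9 of the 12 overlapped 2 or more replicate 1 peaks. The replicate 1 scores ordered them differently from the whole-series list. The highest of these was at X 11935378 to 11939145, with 4 replicate 1 peaks and a score of 3100, tied at rank 2 among the X peaks of that list. X 9463276 to 9469295 followed with 5 replicate 1 peaks and a highest score of 2854 (rank 12).

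Between 2174 and 1823 in replicate 1 lay X 12361451 to 12364236 (2174), X 2995592 to 2997864 (2104), X 14522946 to 14529069 (2042), X 16055087 to 16057657 (1829) and X 4206280 to 4210712 (1823). X 14522946 to 14529069 was split into 7 replicate 1 peaks, the most at any of the sites. Lower values were found at X 805312 to 808024 (1412), X 17542927 to 17546611 (1232), X 1342621 to 1346297 (777) and X 1908624 to 1909989 (567). X 1626220 to 1627786 stood apart: its whole-series score was 249.77 and its replicate 2 score 3100, while its replicate 1 peak was 240 bp wide with a score of 102.42, rank 984 of the 1889 X peaks. Among the 20 sites of 200 or more, X 1378987 to 1379815 (score 207.18) was the exception in replicate 2, with a score of 2804.

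The 60 sites with no replicate 1 peak were weaker and narrower than the others in the measures of the other lists. Their median whole-series score was 63.75 against 83.18 for the 529 supported sites, and 50 of the 60 scored under 75. Their median replicate 2 score was 844.5 against 1473, and their median width was 530.5 bp against 674 bp. The ranges overlapped in each of these measures. The nearest replicate 1 peak lay 209 to 36209 bp away with a median of 4013 bp, and 13 of the 60 had one within 1000 bp. The highest scoring of the 60 was X 16943665 to 16944214 (score 114.22), with a replicate 2 score of 3100 and the nearest replicate 1 peak 336 bp away. It was followed by X 13264501 to 13264958 (106.63, replicate 2 score 1682), whose nearest replicate 1 peak was 12670 bp away. The next were X 352938 to 353861 (96.36, replicate 2 score 1425), X 1989602 to 1989958 (88.55, 549.58) and X 2688552 to 2689268 (86.18, 942). A low replicate 1 signal at these sites cannot be told from a signal just under the limit of that list, since no read counts were used.

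The sites were wider than the other X peaks. Their widths had a median of 668 bp (exact 95% interval of the median 640 to 690 bp) and quartiles of 528 and 874 bp, while the other X peaks had a median of 283 bp and quartiles of 201 and 419 bp. Of the sites, 106 (18.0%) were wider than 1000 bp, against 120 (1.41%) of the other X peaks, and 27 (4.58%) against 23 (0.270%) were wider than 2000 bp. Width and score come from the same calls, so this difference is a description. The sites covered 511 kb, which is 14.6% of the 3486 kb covered by X peaks and 2.88% of X. Below the limit the median width was 410 bp at scores of 10 to 25 and 546 bp at 25 to 50, so widths also ran on across it. Among the sites it went from 605 bp at scores of 50 to 75 to 719.5 bp at 100 to 150, 970 bp at 150 to 200 and 2750 bp at 200 or more.

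Width and score separated at single sites. The widest site, X 16931238 to 16939977, was 8740 bp wide but scored 54.9. It overlapped 2 replicate 2 peaks, with a highest score of 3100, and no replicate 1 peak, the nearest of which was 719 bp away. The next widest were X 14522946 to 14529069 (6124 bp, score 251.48) and X 8032278 to 8038384 (6107 bp, 231.58), each with peaks in both replicates. The narrowest were X 14244471 to 14244775 (305 bp, 55.78), X 16208626 to 16208950 (325 bp, 52.94) and X 13396478 to 13396804 (327 bp, 81.94). Of these, the first had no replicate 1 peak and the lowest replicate 2 score of all the sites, 430.51. The second lay inside a replicate 2 peak of 2857 bp with a score of 3100. Some of the widest X peaks were no strong sites: 4 of the 10 widest scored under 50, among them X 4032523 to 4056468 (23946 bp, 36.47), which overlapped a replicate 1 peak and no replicate 2 peak.

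The replicate lists drew the borders of the sites differently. Replicate 2 peaks enclosed 507 of the 589 sites (86.1%) and had a median width of 915 bp. Replicate 1 peaks enclosed 23 sites, had a median width of 484 bp and covered a median of 71.7% of the sites they met. A site met exactly 1 replicate 1 peak in 466 cases, 2 in 52 cases and 3 or more in 11. In replicate 2 it met exactly 1 peak in 586 cases and 2 in 3 cases. In the other direction, 16 replicate 2 peaks spanned 2 or more sites, up to 4, while no replicate 1 peak spanned more than 1. Shares enclosed were not computed for the other X peaks, so they are not read as particular to the sites. At those other peaks, the overlapping peaks had a median width of 593 bp in replicate 2 and 359 bp in replicate 1. The midpoints of site and replicate peak lay a median of 53 bp apart in replicate 1 and 37.5 bp in replicate 2. The largest distances were 2317.5 and 4208 bp. Only overlapping peaks were measured, which by itself limits these distances.

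Neighbouring sites lay a median of 19.2 kb apart between midpoints, with quartiles of 7.77 and 40.1 kb and a mean of 29.7 kb ± 31.4 (SD over 588 pairs). Between neighbours of any score on X the median was 1.41 kb. The closest pair was X 8038460 to 8039550 and X 8039604 to 8040196, with 53 bp between them. Both lay under 1 replicate 2 peak of 9614 bp and had separate replicate 1 peaks with scores of 310 and 377. Gaps under 1 kb separated 37 pairs, gaps under 10 kb 195 pairs (33.2%), and gaps over 100 kb 25 pairs (4.25%). A site had its nearest other site within 10 kb in 317 cases (53.8%) and within 50 kb in 570 cases (96.8%).

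**Figure D3:**
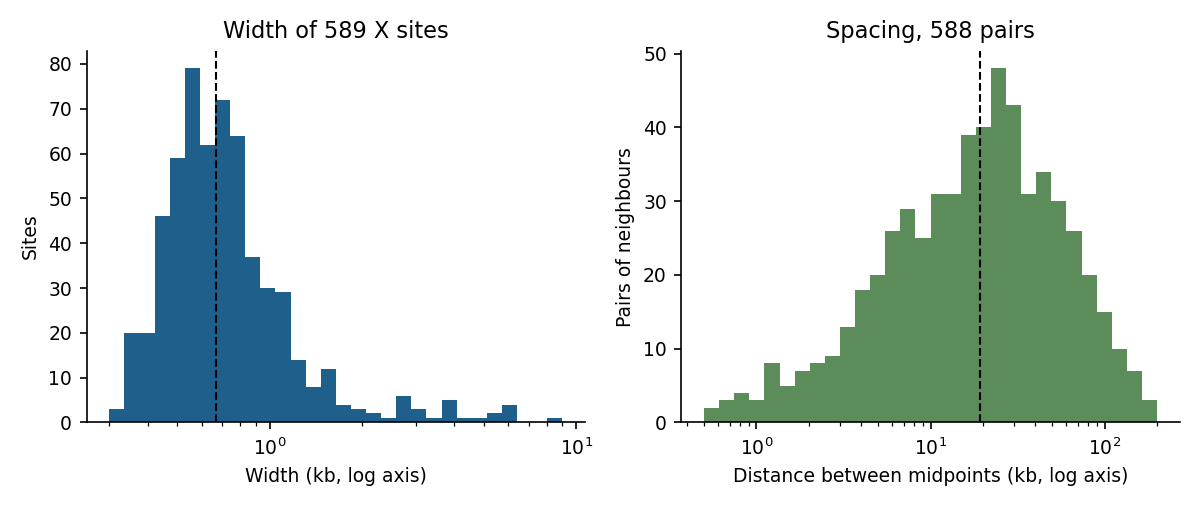
Width of the 589 X sites of score 50 or more (left) and distance between the midpoints of neighbouring sites (right), both on logarithmic horizontal axes in kb. Bars count sites or pairs, and dashed lines mark the medians of 668 bp and 19.2 kb. Widths reach 8740 bp and distances run from 0.556 to 183 kb.

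Some sites lay close together. No count expected for randomly placed sites was set beside these groups, so they are a description. With gaps under 10 kb joined, 394 groups remained, of which 272 held 1 site, 75 held 2 and 47 held 3 or more. The largest held 7 sites from X 8019566 to 8049341 (29776 bp). Its highest site was X 8032278 to 8038384 (231.58), with a score of 3100 in both replicates, and X 8028760 to 8029467 beside it scored 159.45. Its other 5 sites scored from 58.48 to 103.65, and the last of them, X 8048528 to 8049341, had no replicate 1 peak. A tighter group of 4 sites, each within 1 kb of the next, lay from X 4336229 to 4339356. These 4 were of nearly equal width, 529 to 538 bp, with scores of 51.5, 75.99, 71.33 and 56.98. Each had its own replicate 1 peak (184 to 471), while replicate 2 called 1 peak over the first pair and another over the second (2753 and 2532).

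The highest scoring sites were not isolated from the other sites. The 47 sites of 150 or more had their nearest other site at a median gap of 4.19 kb, against 9.21 kb for all sites, and 15 of the 47 had none within 10 kb. The 47 sites lay in 22 of the 35 bins of 500 kb and were a median of 234 kb apart, and the 20 sites of 200 or more lay in 15 bins, a median of 844 kb apart. Over all sites the Spearman rho was -0.04 between the score and the gap to the nearest site (589 sites) and -0.02 between the scores of neighbouring sites (588 pairs), both as descriptions. Wide signal cut into several calls would also give close neighbours, and its part in these distances was not tested. With sites under 1 kb apart joined, 552 remained and the median spacing was 21.5 kb.

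Sites were present in each of the 35 bins of X, at 16.8 ± 4.62 per bin (SD over bins) and 33.2 per Mb over the chromosome. The first began at 229536 and the last ended at 17714641. The counts per bin varied more than those of all X peaks, with a coefficient of variation of 27.4% against 11.1%, a coefficient that is larger for smaller counts. The most were in the bins from 13500001 to 14000000 (27 sites), from 1000001 to 1500000 (26) and from 14500001 to 15000000 (25). The fewest were in the first bin (6 sites) and in that from 6500001 to 7000000 (7). Between the numbers of sites and of other X peaks per bin, the Spearman rho was 0.02 (35 bins, as a description). The first bin had both the fewest sites and the fewest X peaks, 168, while the bin of 7 sites had 264 X peaks, near the median of 262.

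**Figure D4:**
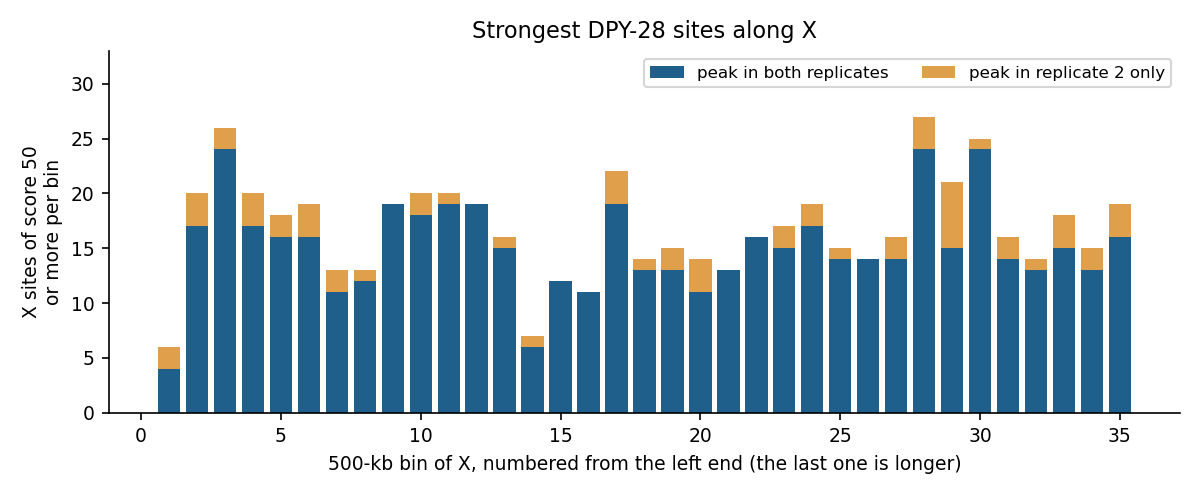
Number of X sites of score 50 or more in each 500-kb bin of X, numbered from the left end of the chromosome, with the part that has a peak in both replicates in blue and the part with a peak in replicate 2 only in orange. The last bin takes in the remainder of the chromosome. Each bin holds between 6 and 27 sites.

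When X was divided into 3 equal stretches, the outer ones held 210 sites each (35.6 per Mb) and the middle one 169 (28.6 per Mb). All X peaks were also fewest in the middle but differed less, with 3075, 3001 and 3022 peaks from left to right. Sites were thus 6.83%, 5.63% and 6.95% of them. Sites of 150 or more numbered 17, 9 and 21. Replicate 1 supported 90%, 92.3% and 87.6% of the sites, and the median whole-series score was 80.64, 76.27 and 81.42. With 1 chromosome and 1 list there is no replicate for a test of these differences. The stretches do not follow the recombination borders of X.

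Most of X lay within 25 kb of a strong site, and under 50% of it within 10 kb. Of its length, 30.0% was within 5 kb of a site, 48.9% within 10 kb, 78.3% within 25 kb and 94.7% within 50 kb. The left end of X, up to the first site, was a stretch of 229.5 kb without a site, which held 63 weaker peaks with scores of up to 24.44. Between neighbouring sites, the longest interval ran from X 6410760 to 6593214 (182 kb), between X 6410090 to 6410759 (score 50.86) and X 6593215 to 6593829 (98.43), both of which had peaks in both replicates. The next longest between neighbouring sites were X 15849874 to 16024436 (175 kb), X 12195689 to 12361450 (166 kb), X 13754844 to 13917266 (162 kb) and X 1682971 to 1837665 (155 kb). These 5 intervals were not empty of DPY-28 peaks. They held 65 to 90 weaker peaks, or 406 to 554 per Mb, with median scores of 5.32 to 6.84 and highest scores of 37.03 to 49.86. The third of these ended at X 12361451 to 12364236, one of the 12 highest sites.

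Weaker X peaks were counted by their distance from the strong sites. Within 1 kb of the edge of a site there were 429 other X peaks per Mb (exact Poisson 95% interval 391 to 469), and at 1 to 2 kb there were 454 (414 to 497). The density was 502 per Mb (475 to 529) at 2 to 5 kb, 531 (507 to 557) at 5 to 10 kb, 511 (489 to 534) at 10 to 20 kb and 493 (471 to 514) at 20 to 50 kb. Beyond 50 kb it was 403 (363 to 445). This last class takes in part of the left end of X before the first site, a stretch of 229.5 kb with 63 weaker peaks. The part of that stretch in the lower density was not tested. Within 5 kb the density was 0.95 times that beyond 5 kb. Each weaker peak was placed by its midpoint, which cannot lie closer to a site than its own end reaches, so densities in the first kb are lowered by construction. The weaker peaks near a site were not higher either: their median score was 6.60 within 1 kb and between 6.31 and 6.68 in the distance classes from 1 to 50 kb, and 5.73 beyond 50 kb.

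The replicate 2 list showed a similar course, and the replicate 1 list did so only in part. X peaks of replicate 2 that overlapped no site had 153 peaks per Mb within 1 kb (131 to 178), 265 at 5 to 10 kb (248 to 283) and 176 beyond 50 kb (150 to 205). In replicate 1 the values were 64.1 (50.1 to 80.9), 82.0 (72.6 to 92.3) and 58.3 (43.9 to 75.9). Between these classes, replicate 1 had 71.2 (63.1 to 79.95) at 10 to 20 kb and its highest density, 82.8 (74.2 to 92.0), at 20 to 50 kb. The nearest class is lowered by construction here too, so it is not set against the others. Replicate 2 peaks are wider and reach past the edges of many sites they cover. The size of this effect in each list was not tested. In each of the 3 lists the density was higher at 5 to 10 kb than beyond 50 kb, and the intervals of these 2 classes overlapped for replicate 1 and not for the other two lists. The class beyond 50 kb again includes part of the left end of X, whose part in this difference was not tested. The share of weaker peaks with a replicate 2 peak was 66.7% within 1 kb of a site and between 56.2% and 57.7% in the classes from 1 to 50 kb and 46.3% beyond. The share with a replicate 1 peak was 15.2% within 1 kb and between 12.8% and 15.3% in the others. A replicate 2 peak that covers a site can reach a weaker peak beside it, and its part in the first share was not tested.

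**Figure D5:**
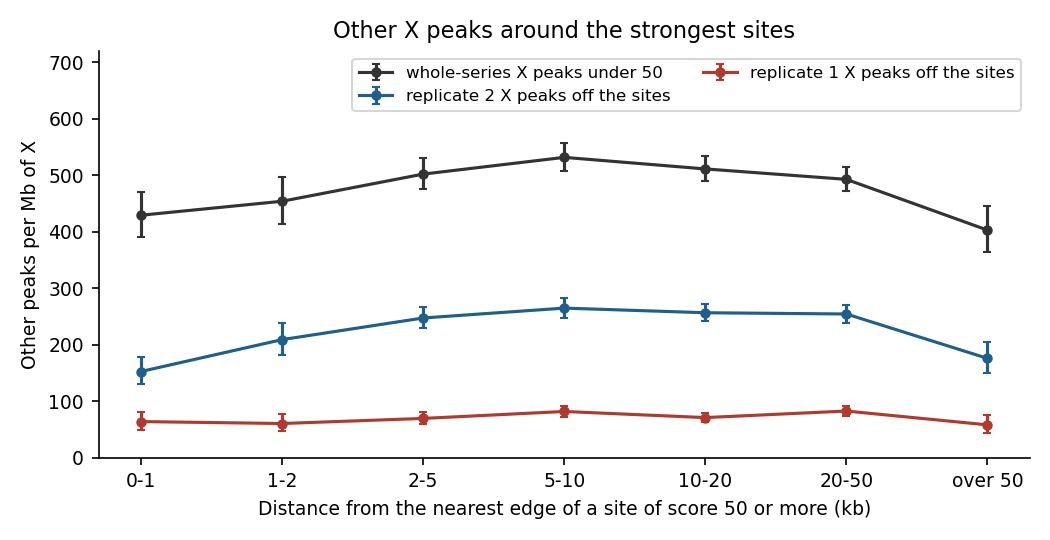
Density of other X peaks, in peaks per Mb of X, by distance in kb from the nearest edge of a site of score 50 or more, for whole-series X peaks under 50 (black) and for X peaks of ChIP replicate 2 (blue) and replicate 1 (red) that overlap no site. Bars are exact Poisson 95% intervals, which cover counting error only. The whole-series density is 429 within 1 kb, 531 at 5 to 10 kb and 403 beyond 50 kb.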

How the data were processed

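BWA and the ce10 build are named in the submitters' processing notes; per the file headers, coordinates are those of WormBase WS220, replicate peaks come from MACS and whole-series peaks from MACS v2. The score that the authors deposited for a peak is the caller's value on an unnamed scale and was compared within a list only. The sources used here give no versions, thresholds or read depth, and do not say what went into the whole-series list, so no read-level error can be given.

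The sites were the X peaks with a score of at least 50. Overlap meant 1 bp or more, spacing used midpoints, and X was cut into 500-kb bins up to the last peak end (17718897), a last bin under 50% of that size being joined to its neighbour. Intervals are exact binomial for shares, exact order-statistic for medians and exact Poisson for densities. The overlap, merging and distance steps were tested on simulated lists. No test of chance was made: the rule used the scores, and there are 2 ChIP samples. Alternatives were other score limits, overlaps, bins and distances, merging, and leaving out each replicate. Regions named were the 12 highest sites, the 5 peaks on each side of the limit, the 3 widest and narrowest, the closest pair, the ends of the longest interval, and the 5 highest sites with no replicate 1 peak; others were named after their values were seen. The sites and these choices were set with earlier results of these data known. Calculations used Python 3.11.15, numpy 2.4.6, pandas 2.3.3 and scipy 1.17.1, and plots matplotlib 3.10.9.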

Additional observations from a re-analysis of the deposited data

How the results depend on the processing

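The score limit set most values. With limits of 40, 75 and 100 in place of 50 (589 sites), there were 766, 338 and 169 sites, their median spacing was 14.2, 32.6 and 73.7 kb in place of 19.2, and the median bin density was 44, 18 and 10 per Mb in place of 32. The median width was 647, 719.5 and 789 bp in place of 668, and 652, 328 and 167 sites had peaks in both replicates, or 85.1%, 97.0% and 98.8% in place of 89.8%. With an overlap of 50% of both peaks, 315 of the 589 sites (53.5%) had support in both replicates in place of 529, against a background of 8.66% over all X peaks; where the replicate peak had to cover 50% of the site it was 373 (63.3%), against 10.9%. With only the upper 50% of replicate X peaks by score it was 454 (77.1%). With 1 replicate left out, support in the other was 529 to 589. By distance between midpoints, the density of weaker peaks within 5 kb was 0.83 times that beyond, in place of 0.95; this distance counts the inside of the sites, where no weaker peak can lie. Merging sites under 1 kb apart, other bin sizes, the replicate peak with the longest overlap, only weaker peaks under 10 and, added after the data were seen, sites or weaker peaks up to 2 kb wide left their results close to the values reported. No paired analysis was possible because no values of the input samples were used. Depth is unknown, so a site without a replicate 1 peak is not shown to lack binding there.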
